A study of Mus musculus with 9 samples.

Results

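E14 cells are mouse embryonic stem cells (ESCs), kept here undifferentiated in serum with LIF, a cytokine that maintains self-renewal. The compound 5-ITu (5-iodotubercidin) was given to these cells for 26 h at 0.1 μM or at 1.0 μM, and control cells received DMSO. Each condition had 3 biological replicates, whose RNA was measured on Mouse Gene 2.0 ST arrays of Affymetrix, 1 array per replicate. The comparison described here sets the 3 arrays at 1.0 μM directly against the 3 arrays at 0.1 μM, so that DMSO enters neither the means nor the spread. All 6 arrays therefore come from cells that received the drug, and DMSO means are given beside them for reference only. Of 10476 deposited probe sets, 9911 lay above the authors' background threshold (8.46 on the log2 scale) on at least 3 of the 9 arrays and were tested. Of these, 8414 carry a single gene symbol and name 8198 genes. At the edge of this filter, the array with the third highest value read 8.4637 for Lpin3 and 8.4642 for Khnyn, just inside, and 8.4632 for Aff3 and 8.4625 for Epm2aip1, just outside. All cells are of 1 line at 1 time point, and the labels name no culture or batch, so the p values measure the spread between these arrays.

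5-ITu is a halogenated analogue of adenosine that binds the ATP pocket of kinases. It inhibits adenosine kinase, which returns adenosine to the nucleotide pool, and Haspin, which phosphorylates histone H3 on threonine 3 in mitosis and so helps to place the chromosomal passenger complex at centromeres. At rising doses it also reaches other kinases, among them members of the CLK and DYRK families that act on splicing factors. ESCs depend on a network of transcription factors around Oct4 (Pou5f1), Sox2 and Nanog, with Klf4 and other factors that respond to LIF. A small share of cells in an ESC culture enters a state resembling the 2-cell embryo, in which Zscan4, Tdpoz, Usp17l and Eif4a-like gene families are transcribed.

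Of 10 ESC markers, 9 were tested, and they read from 8.43, just under the background threshold, to 13.18 on the 6 arrays. Nanog, Sox2 and Tdgf1 were bright, whereas Esrrb was near background, with means of 8.70 and 8.51. Median signals were 9.81 to 9.84 on every array. Between 9645 and 9780 probe sets were over the threshold on the arrays at 0.1 μM, and between 9481 and 9523 on those at 1.0 μM. Pearson's r between arrays, taken across probe sets, was 0.9961 to 0.9978 within the low dose, 0.9867 to 0.9941 within the high dose and 0.9695 to 0.9769 between them. The median SD of a probe set between replicates was 0.0424 at 0.1 μM, 0.0753 at 1.0 μM and 0.0859 in DMSO. Markers of other lineages were mostly not among the tested probe sets. Only 2 of 24 mesoderm markers, 8 of 34 endoderm markers, 9 of 29 trophectoderm markers, 11 of 27 neural markers, 9 of 26 fibroblast markers and 2 of 21 macrophage markers were tested. Their defining factors, such as T, Sox17, Gata6, Cdx2, Eomes, Sox1 and Col1a1, were not among them.

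Raising the dose from 0.1 to 1.0 μM changed many probe sets by small amounts. At a limma adjusted p under 0.05, taken over all tested probe sets, 3446 of 9911 probe sets passed (34.8%). Of these, 1456 were higher at 1.0 μM (14.7%) and 1990 were lower (20.1%). Among probe sets with 1 symbol, 1233 were higher and 1674 were lower, which named 1190 and 1633 genes with none in both directions. The 3 arrays of one dose lay entirely beyond the 3 arrays of the other for 5119 probe sets (51.6%), and for 3432 of the 3446 that passed. In bulk samples such as these, fewer cells expressing a gene and less of its RNA per cell cannot be told apart.

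Most of these differences were small. The median difference among single-symbol probe sets that passed was 0.239 on the log2 scale for the higher ones and -0.299 for the lower ones. At a fold change over 1.5 and an unadjusted limma p under 0.05, 60 probe sets were higher (0.605%) and 228 were lower (2.3%). Of those, 58 and 226 also passed at the adjusted threshold. Only 26 of the 60 higher probe sets carry a single symbol, against 184 of the 228 lower ones. Past 2-fold, 11 probe sets were higher and 25 were lower. The tilt towards lower values was greatest for dim genes. Of the 2053 dimmest single-symbol probe sets, 25.5% were lower and 12.6% were higher, whereas for the 2061 brightest these shares were 16.5% and 14.9%. Quantile normalization of the 6 arrays moved the balance to 1824 higher and 1766 lower, so that higher ones made up 50.8% of the calls in place of 42.3%. Leaving out 1 array changed the counts most for the low dose. Without its replicate 1, 744 were higher and 1371 lower.

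**Figure D1:**
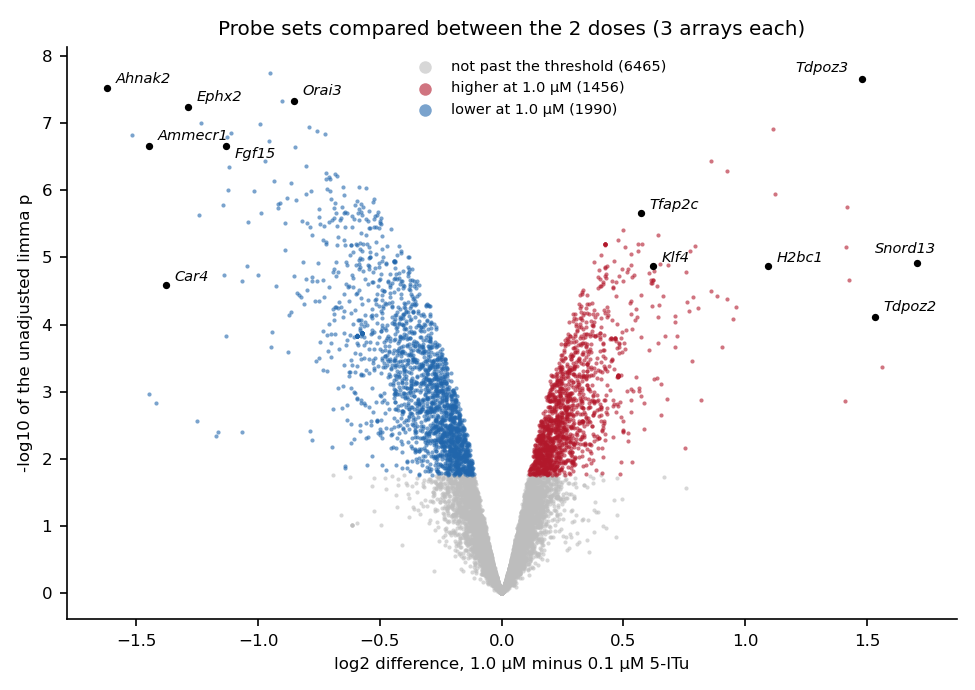
Each point is 1 of 9911 probe sets, with the log2 difference of 1.0 μM minus 0.1 μM on the horizontal axis and -log10 of the unadjusted limma p on the vertical axis. Red points (1456) were higher and blue points (1990) lower at 1.0 μM at an adjusted p under 0.05, grey points did not pass, and 12 genes of the text are labelled.

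Leaving aside small RNAs and numbered loci, the largest fitted increases were in genes under the background threshold on every low-dose and DMSO array. Such genes entered the comparison only because their high-dose arrays were over the threshold, and of 45 such probe sets 40 were called higher. Their differences are given as bounds, the high-dose mean against the threshold itself. Tdpoz3, a member of a tandem family of TRAF- and BTB-domain genes transcribed in the 2-cell embryo, read 7.72, 7.68 and 7.66 at 0.1 μM and 9.11, 9.10 and 9.29 at 1.0 μM. The low-dose arrays were all under the background threshold and the high-dose arrays all over it. It was at least 1.63-fold higher. Its paralogue Tdpoz2 read 7.05, 7.85 and 7.39 against 8.90, 9.19 and 8.80, at least 1.41-fold higher. Rnf151, a RING finger gene of the testis, read 7.54, 7.38 and 7.32 against 9.21, 8.72 and 8.59, higher by at least 0.38 on the log2 scale.

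Among genes over background at both doses, small RNAs and numbered loci again left aside, the histone gene H2bc1 came first. This gene encodes a histone H2B of testis and oocyte. It read 10.16, 10.47 and 10.34 at 0.1 μM and 11.22, 11.45 and 11.57 at 1.0 μM, with a DMSO mean of 10.66 between the doses. The DMSO arrays (10.85, 10.73 and 10.40) overlapped with those of the low dose. The difference was 1.09 ± 0.11 (SE), or 2.13-fold (limma adjusted p = 0.000675). Sp110, a nuclear body protein gene that responds to interferon, followed with 9.31, 9.30 and 9.47 against 10.08, 10.26 and 10.59. Both of its probe sets were higher, by 0.95 and 0.71. Klf4, the pluripotency factor, read 10.79, 10.77 and 10.82 at the low dose and 11.54, 11.39 and 11.31 at the high dose. All high-dose arrays lay above all low-dose arrays, and the difference was 0.62 ± 0.06 (SE), or 1.54-fold (adjusted p = 0.000675). The low-dose mean of Klf4 (10.79) stood close to that in DMSO (10.64).

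The other genes of this upper group have varied roles. Tfap2c, a transcription factor of germ cells and trophectoderm, was higher by 0.57 ± 0.04 (9.29, 9.24 and 9.32 against 9.89, 9.87 and 9.80). Cycs, which encodes the electron carrier cytochrome c, and Nqo1, a quinone reductase, were higher by 0.61 ± 0.09 and 0.59 ± 0.12. Of the 4 probe sets of Cycs, however, a second was higher by 0.29 and the other two differed by -0.19 and did not pass. Car2, a carbonic anhydrase gene, was higher by 0.57 ± 0.08, and Pik3r3, a regulatory subunit of PI3-kinase, by 0.66 ± 0.08. Lxn, an inhibitor of carboxypeptidases, was higher by 0.71 ± 0.105 and the zinc finger gene Zbtb10 by 0.63 ± 0.11. Slc30a2, a zinc transporter gene, and Letmd1 were over the threshold at the high dose only, and were higher by at least 0.33 and 0.43 on the log2 scale. Rab26os, a transcript from the strand opposite Rab26, was higher by 0.78 ± 0.125. Limma adjusted p values of the others ran from 0.000304 for Tfap2c to 0.00902 for Nqo1.

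Large decreases were more numerous than large increases. Ahnak2, a gene for a giant scaffold protein, read 9.06, 9.10 and 8.94 at 0.1 μM and 7.53, 7.39 and 7.32 at 1.0 μM. Its difference of -1.62 ± 0.07 (SE, limma adjusted p = 9.31e-05) was the largest fall with 1 symbol, but its second probe set differed by only -0.63. Since its high-dose arrays were under the threshold, the first probe set shows a level at least 1.48-fold lower. Ammecr1, a gene on the X chromosome named for the AMME deletion syndrome, read 10.34, 10.49 and 10.34 against 8.94, 9.09 and 8.80. No arrays overlapped, and the high-dose mean was 2.73-fold lower (-1.45 ± 0.08, adjusted p = 0.000119). The DMSO mean of Ammecr1 (10.64) was on the side of the low dose.

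Several strongly lowered genes encode enzymes and surface proteins. Car4, a membrane-anchored carbonic anhydrase, read 10.27, 10.48 and 10.17 against 8.64, 8.91 and 9.23, a difference of -1.38 ± 0.15. Ephx2, the soluble epoxide hydrolase, fell from 9.75, 9.84 and 9.64 to 8.43, 8.43 and 8.51, which left its mean at the background threshold. Its difference was -1.29 ± 0.06 (limma adjusted p = 9.6e-05). Fgf15, an FGF ligand that ESCs release, read 9.99, 10.09 and 10.10 against 9.02, 8.81 and 8.96 (-1.13 ± 0.06). Ppp1r14a, which encodes the myosin phosphatase inhibitor CPI-17, was lower by 1.23 on the log2 scale (9.28 to 8.05 as group means) and ended under background, at least 1.76-fold lower. Orai3, a calcium channel subunit, had closely spaced arrays (9.42, 9.40 and 9.45 against 8.59, 8.54 and 8.58), with a difference of -0.85 ± 0.04. The long noncoding RNA Tug1, one of the brightest transcripts of the group, read 11.48, 11.48 and 11.60 against 10.56, 10.60 and 10.75 (-0.88 ± 0.06).

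Others of the leading genes were Tmem30b (-1.11), a flippase subunit, Shisal2a (-1.13), Zfp979 (-0.99, with a second probe set at -0.05 that did not pass), Acad11 (-0.97), an acyl-CoA dehydrogenase gene, Ppp1r1a (-0.95), a phosphatase inhibitor gene, Slc23a1 (-0.92), an ascorbate transporter gene, Marveld1 (-0.87), Rab25 (-0.85), a small GTPase gene of epithelia, Kyat3 (-0.85) and Fndc10 (-0.85). Serping1 (-1.14), the C1 inhibitor gene, Rps23rg1 (-1.13) and Glod5 (-1.12) fell to below the background threshold, so that against the threshold itself they were lower by at least 0.26, 0.80 and 0.32 on the log2 scale. Glod5 was under the threshold on every DMSO array as well, and so entered the comparison only through its low-dose arrays. SEs of these genes ranged from 0.05 to 0.16. A pass in each of the 6 fits that left out 1 array was a condition for naming them here, and is not a result.

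**Figure D2:**
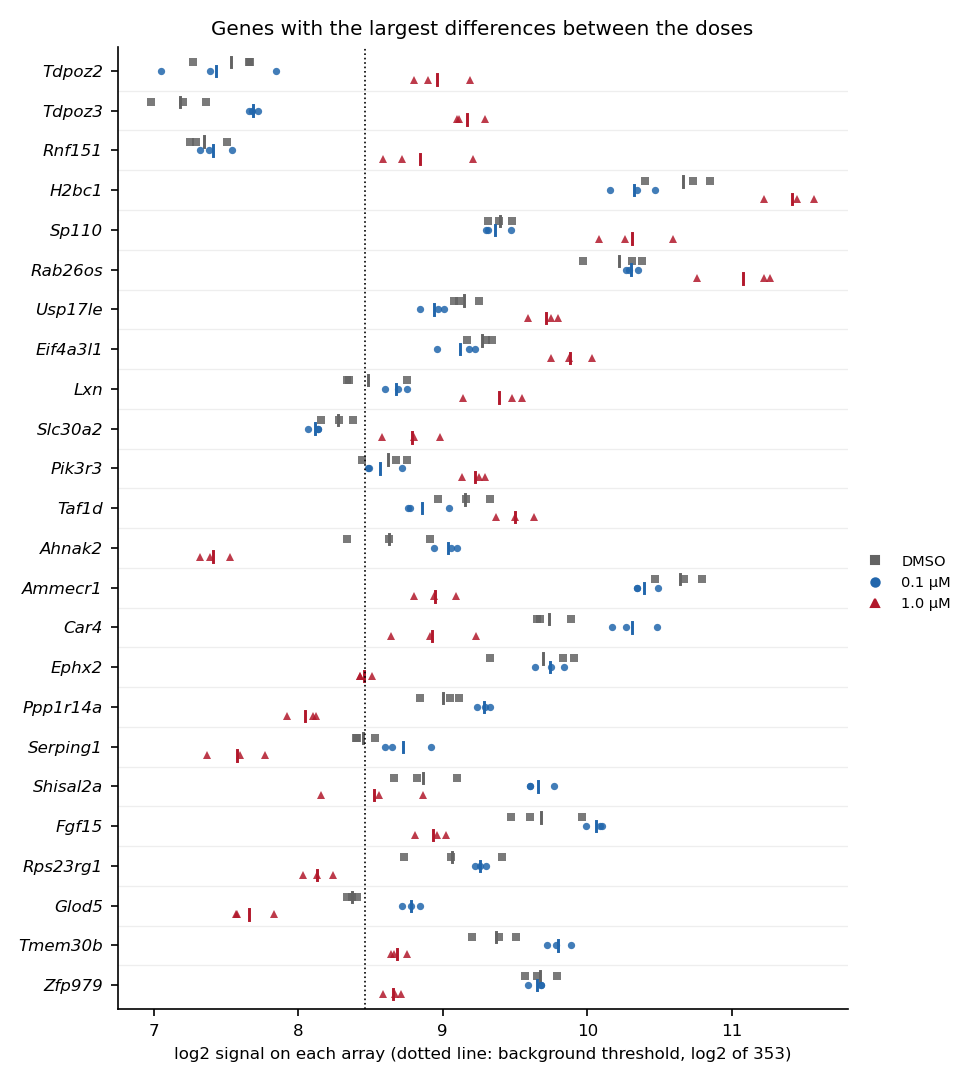
Log2 signal on each array for the 12 genes with the largest rise (top) and the 12 with the largest fall (bottom), small RNAs and numbered loci left aside. Only genes that passed with every array left out in turn, and whose doses did not overlap, could be chosen. Squares are DMSO, circles 0.1 μM and triangles 1.0 μM, each a single array with a bar at the mean of 3.

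The brightest genes that passed differed by little. Among the higher ones, H2ac1 read 12.50, 12.59 and 12.64 against 12.97, 13.10 and 13.06 (0.47 ± 0.05). Uqcrb, a subunit of respiratory complex III, was higher by 0.29, Polr2f, a subunit shared by RNA polymerases, by 0.23, Kpnb1, the nuclear import receptor importin β, by 0.19 and Mcm4, a subunit of the replicative helicase, by 0.18. The brightest lowered genes were Rpl28 (-0.21), Tdgf1 (-0.32), Arf1 (-0.33), Capns1 (-0.23), Uck2 (-0.18, and -0.75 for a dimmer probe set) and Odf1 (-0.23). Tdgf1 encodes Cripto, the co-receptor of Nodal, and read 13.16, 13.18 and 13.16 against 12.82, 12.89 and 12.81. Uck2 encodes a uridine-cytidine kinase. The call of Odf1 was lost after quantile normalization.

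Gene classes were compared by the number of members that passed in each direction, 1 probe set per gene. Over all 8198 genes, 14.4% were higher and 19.7% lower, with a median difference of -0.0023. These shares stand close to the 14.7% and 20.1% over all probe sets and are the values against which each class is read. No class was tested as a set. Where all arrays of 1 dose were under the background threshold, a fitted difference is not a measured fold. Bounds against the threshold are then given for the larger differences. Of the smaller ones, Xpc, Esrp2, Stmn3, Mymx and Ahnak were under it on every high-dose array, and Nova1 on every low-dose array. Car12, Ctsf, Mymx, Pold4, Slc47a1 and Stmn3 were under it on every high-dose and every DMSO array. These genes entered the comparison only through their low-dose arrays, which favoured a lower call. How many such probe sets there were in all was not counted.

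**Figure D3:**
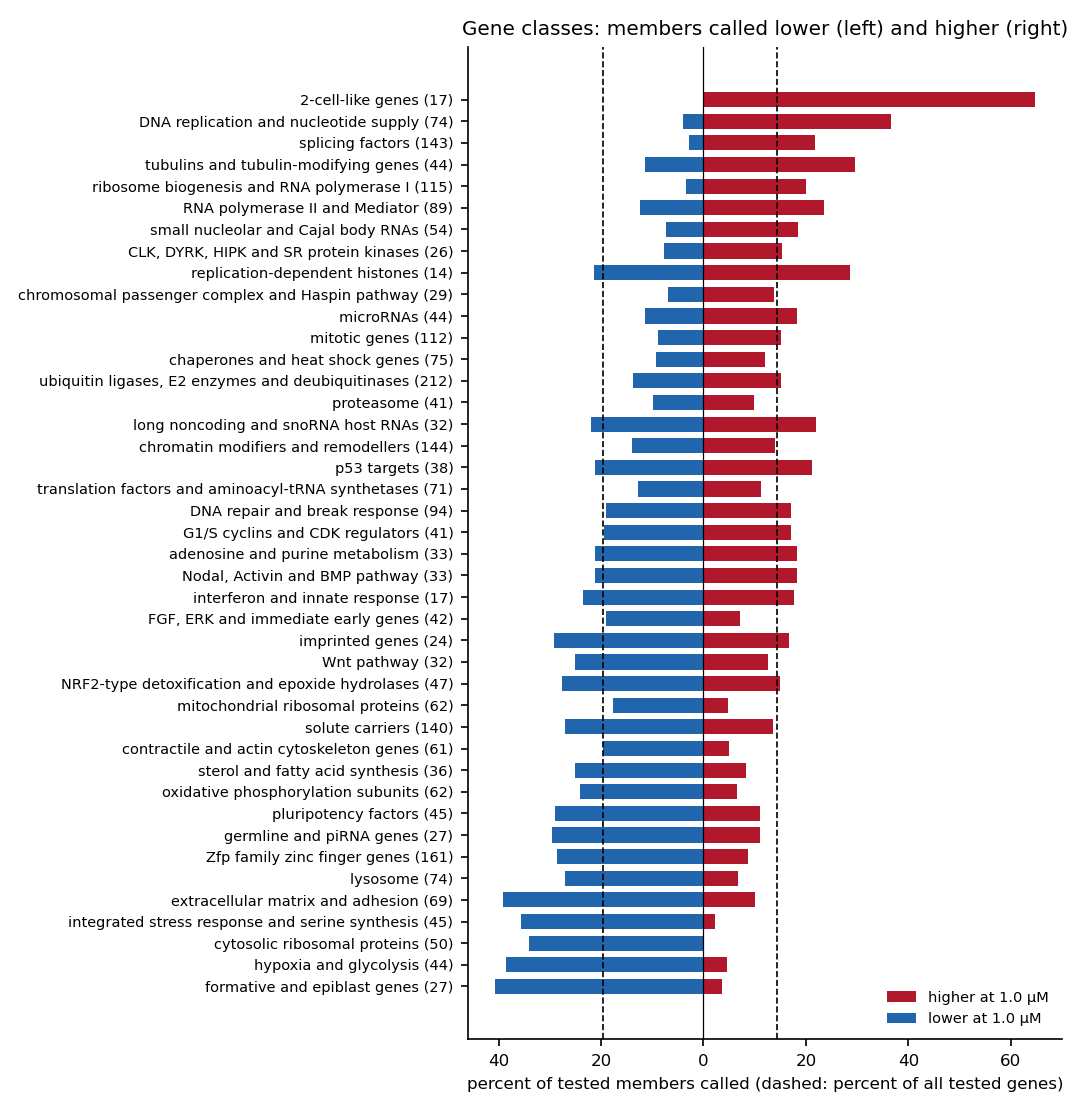
Bars give the percent of tested members of each gene class that were higher (red, right) or lower (blue, left) at 1.0 μM at an adjusted p under 0.05, with the number of tested members in parentheses. Dashed lines mark the shares over all tested genes (14.4% higher, 19.7% lower), and the 2-cell-like genes at the top have 64.7% higher and none lower.

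Most tested genes of the 2-cell-like state were higher at 1.0 μM. Of 45 entries in the list, 17 were tested. Of these 17 members, 11 were higher (64.7%) and none was lower, and the median difference was 0.368. Tdpoz2 and Tdpoz3 were over the threshold at the high dose only, which favoured their calls, and of the other 15 members 9 were higher. With an array left out, 10 or 11 of the 11 still passed. Beside Tdpoz2, Tdpoz3 and Sp110, Usp17le, a deubiquitinase gene of a tandem family, read 8.84, 8.97 and 9.01 against 9.59, 9.75 and 9.80 (0.77 ± 0.07, limma adjusted p = 0.000528). Usp17ld, of the same family, was higher by 0.37. Eif4a3l1, a copy related to the RNA helicase Eif4a3, read 8.96, 9.18 and 9.22 against 9.75, 9.87 and 10.03 (0.76 ± 0.09). Gm4340, a further member of this group, read 10.71, 10.79 and 10.82 against 11.39, 11.54 and 11.76 (0.79 ± 0.09). The DMSO means of Usp17le (9.15) and Gm4340 (11.07) lay between the doses, whereas that of Gm2022 (10.13) lay below both.

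The numbered loci Gm8300, Gm2022 and Gm2016 were higher by 0.43, 0.42 and 0.33, and Arg2, an arginase gene, by 0.29. The Zscan4 genes, which define this state, did not pass. Zscan4c, which read 10.42, 10.38 and 10.62 against 10.45, 10.37 and 10.63, differed by 0.01 ± 0.09 (adjusted p = 0.916). Zscan4b, Zscan4d and Zscan4e differed by 0.13, 0.10 and 0.10, with overlapping arrays in each case. Calcoco2 (0.16) and Pramel19 (-0.09) also overlapped. The families in this list hold near-identical copies whose probes may cross-hybridise, so that the members are not separate measurements. Tdpoz2 and Tdpoz3 had already been named from these arrays by the study, so their place in the list is not independent.

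**Figure D4:**
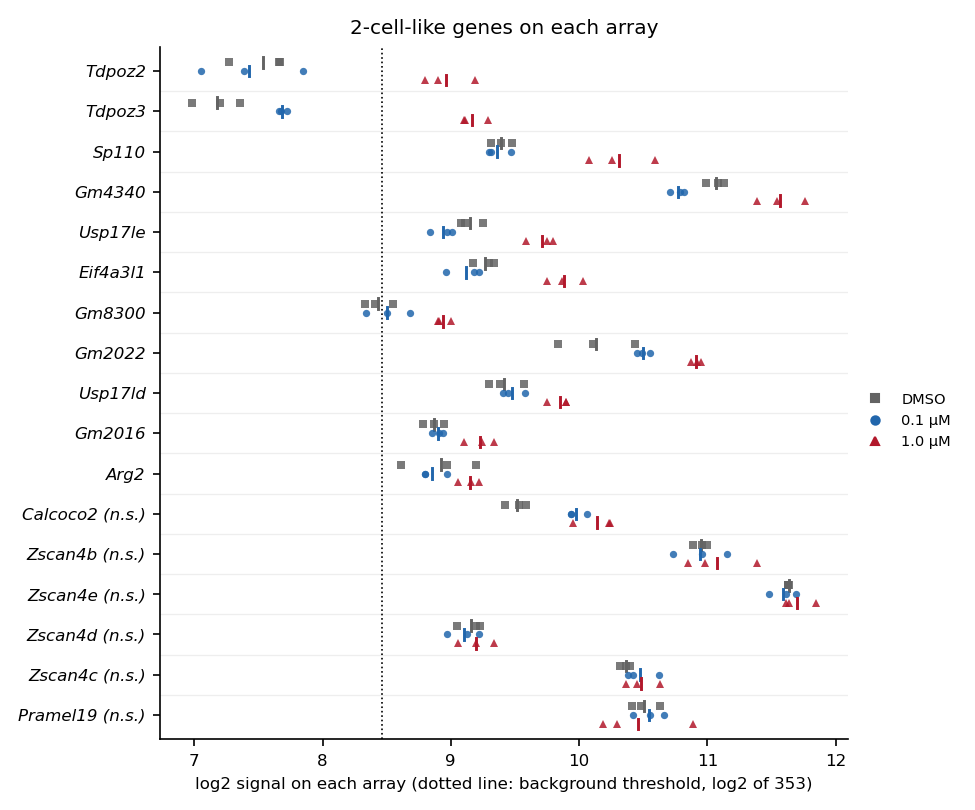
Log2 signal of the 17 tested 2-cell-like genes on each array, with squares for DMSO, circles for 0.1 μM and triangles for 1.0 μM, bars at the means of 3 arrays, and genes that did not pass marked n.s. The 11 genes that passed have all triangles to the right of all circles, whereas the 4 Zscan4 genes in the lower rows overlap.

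The start regions of 2 of these genes are shown because they carry the same short motif. Windows of 250 bases before to 50 bases after the annotated start were read from RefSeq (GRCm38.p6), where 8 of the 17 members had an entry. The letters GATTNAATC, the palindromic core of the sequence that the 2-cell transcription factor Dux recognises, were searched on both strands. They occurred in 2 of these 8 windows and in 0.152% of the windows of 6571 tested genes. The matches are in capitals.
Eif4a3l1, chr6:136327377-136327476, plus strand: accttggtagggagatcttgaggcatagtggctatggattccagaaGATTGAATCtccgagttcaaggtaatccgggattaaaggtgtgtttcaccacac
Gm4340, chr10:104193850-104193949, plus strand: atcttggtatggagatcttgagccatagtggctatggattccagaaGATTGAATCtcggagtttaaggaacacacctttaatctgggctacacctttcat
The first 60 bases of these stretches were identical at 56 positions, so that they are not separate occurrences of the motif. A match describes the letters and is not evidence of binding.

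Replication-dependent histone genes split by gene. Of 14 tested, 4 were higher and 3 lower. The higher ones were H2bc1, H2bc14 (8.40, 8.50 and 8.48 against 9.01, 9.17 and 9.12, a difference of 0.64 ± 0.05), H1f3 (0.58 ± 0.14) and H2ac1. The lower ones were H4f16 (10.32, 10.29 and 10.37 against 9.70, 9.92 and 9.80, a difference of -0.52 ± 0.06), H2bc18 (-0.38 ± 0.08) and H2bc12 (-0.29 ± 0.05). Limma adjusted p values of these 7 ran from 0.000406 to 0.0166. H1f3 was lost in 1 of the fits that left out an array, and H4f16 and H2bc12 were lost when all 9 arrays were fitted together. The study lists H4f16, under the name Hist4h4, as raised at 1.0 μM against DMSO. Here its DMSO arrays read 10.56, 9.84 and 10.66, with a mean (10.35) above that at 1.0 μM (9.81). The study names no probe set. H3c13, H3c15, H1f4 and H4c8, also raised in the study, were not among the tested single-symbol probe sets. Among the higher genes, H2bc1 and H2ac1 lie head to head on chromosome 13, with 280 bases between their annotated starts, and encode the H2B and H2A forms of the germ line.

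The start regions of 3 H2B genes are shown because the same promoter element occurs in genes that moved in opposite directions. The octamer ATGCAAAT, the site of POU-domain factors in H2B promoters, was searched on both strands. It was present in 6 of the 14 histone windows and in 1.34% of the 6571 windows. Of those 6 genes, 3 were higher, 2 were lower and 1 did not pass. Both H2bc1 and H2ac1 are among the 3 higher ones. Their windows share 220 bases, and the octamer shown for H2bc1 lies in both, so that they are not separate occurrences. The octamer appears below in capitals, as ATTTGCAT where it lies on the other strand.
H2bc1, higher by 1.09, chr13:23934107-23934406, minus strand: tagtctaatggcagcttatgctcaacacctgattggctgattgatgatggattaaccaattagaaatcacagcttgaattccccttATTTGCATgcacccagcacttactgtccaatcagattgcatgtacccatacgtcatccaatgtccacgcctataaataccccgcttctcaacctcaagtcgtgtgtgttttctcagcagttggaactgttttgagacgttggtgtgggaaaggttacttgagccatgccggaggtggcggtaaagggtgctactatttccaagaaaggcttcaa
H2bc14, higher by 0.64, chr13:21721794-21722093, plus strand: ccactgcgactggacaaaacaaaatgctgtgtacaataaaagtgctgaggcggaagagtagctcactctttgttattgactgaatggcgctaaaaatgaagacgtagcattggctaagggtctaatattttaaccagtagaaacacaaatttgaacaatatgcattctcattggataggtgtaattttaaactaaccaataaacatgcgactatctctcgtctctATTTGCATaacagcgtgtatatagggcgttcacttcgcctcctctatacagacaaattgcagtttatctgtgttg
H2bc12, lower at 1.0 μM (-0.29), chr13:22035571-22035870, plus strand: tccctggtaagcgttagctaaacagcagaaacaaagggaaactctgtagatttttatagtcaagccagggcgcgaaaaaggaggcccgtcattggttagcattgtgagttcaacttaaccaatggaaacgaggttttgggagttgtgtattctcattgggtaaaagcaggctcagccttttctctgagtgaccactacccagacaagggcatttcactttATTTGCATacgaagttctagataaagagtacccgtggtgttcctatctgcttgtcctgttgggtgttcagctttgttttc
The octamer began 164 bases upstream of the start in H2bc1, and 25 and 30 bases upstream in H2bc14 and H2bc12.

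**Figure D5:**
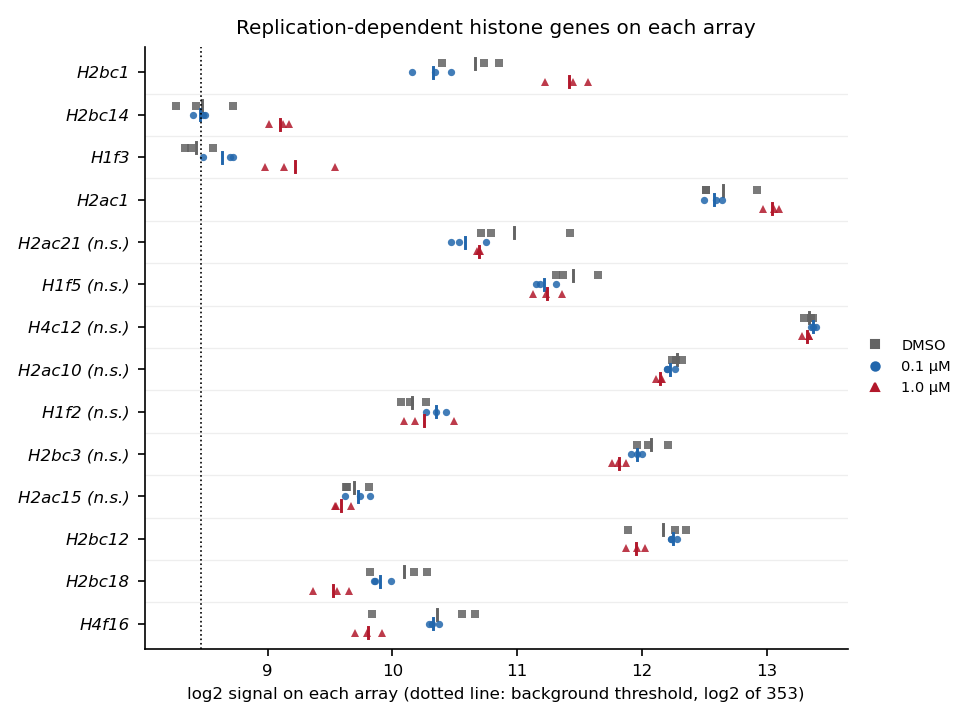
Log2 signal of the 14 tested replication-dependent histone genes on each array, with squares for DMSO, circles for 0.1 μM and triangles for 1.0 μM and bars at the means. The first 4 genes have all triangles to the right of the circles and the last 3 have them to the left, while the 7 between did not pass (n.s.).

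The core pluripotency factors did not pass between the doses. Pou5f1 read 9.51, 9.46 and 9.54 against 9.78, 9.61 and 9.48, with a difference of 0.12 ± 0.07 (limma adjusted p = 0.241). Sox2 differed by 0.08 ± 0.05 (adjusted p = 0.223) and Nanog by -0.06 ± 0.04 (adjusted p = 0.307), although the arrays of these 2 genes did not overlap. Of the wider list of 45 pluripotency genes, 5 were higher and 13 lower, with a median of -0.057. Tcl1, a coactivator of Akt, read 11.22, 11.17 and 11.27 against 10.52, 10.47 and 10.55 (-0.71 ± 0.05, adjusted p = 0.000228). Its DMSO mean of 10.67 lay nearer to the high dose. Ooep, a gene of the maternal complex of the oocyte, was lower by 0.69 on the log2 scale (9.30 to 8.62 as means). Fgf4, the ligand that drives exit from the naive state, fell by 0.37 and Lin28a, the let-7 regulator, by 0.40.

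Genes of the formative state and the epiblast, which ESCs turn on as they leave the naive state, were lower in a larger share than all genes. Of 27, 11 were lower (40.7%), 1 was higher and 15 did not pass, with a median difference of -0.162. Epha1, an ephrin receptor gene, read 8.60, 8.71 and 8.65 against 8.03, 8.08 and 8.03, a difference of -0.60 ± 0.04 (limma adjusted p = 0.000296). Since its high-dose arrays were under the background threshold, it was at least 1.14-fold lower. Dnmt3b, the de novo DNA methyltransferase, read 11.63, 11.69 and 11.66 against 11.39, 11.36 and 11.26 (-0.32 ± 0.05), and its DMSO mean was higher still (11.94). Cldn6 fell by 0.48, Sox12 by 0.40 and Dusp6, a phosphatase of ERK, by 0.23. Their adjusted p values ran from 0.00207 to 0.00369. Of these 11, between 7 and 11 still passed with an array left out, the fewest without replicate 2 of the low dose.

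Signalling genes around Nodal and FGF were lower in shares near the background, with some larger differences among them. Foxh1, the nuclear partner of Smad2 and Smad3, read 10.28, 10.22 and 10.21 against 9.68, 9.56 and 9.57 (-0.63 ± 0.05, limma adjusted p = 0.000304). Lefty1, an inhibitor of Nodal and a target of its pathway, read 10.74, 11.09 and 10.77 against 10.07, 10.28 and 10.31 (-0.65 ± 0.11, adjusted p = 0.00412), below a DMSO mean of 11.45. Id3, a target of BMP, was higher by 0.33. Over the whole list of 33 Nodal, Activin and BMP genes, however, 6 were higher and 7 lower, shares of 18.2% and 21.2% that stand near the background. Among 42 genes of FGF, ERK and the immediate early response, 3 were higher and 8 lower. The lower ones included Fgf15, Spry1 (-0.40), an ERK feedback inhibitor, and Nab2 (-0.31), a corepressor of Egr1. Of 32 Wnt genes, 4 were higher and 8 lower, among them Sfrp1 (-0.51), Lgr4 (-0.36) and Dvl3 (0.39).

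Calls among trophectoderm, endoderm and neural markers were more often lower than higher, as over all genes (19.7% lower and 14.4% higher). Each of these lists held few tested members. Of the 2 macrophage markers tested, 1 was higher and none was lower. Of 9 trophectoderm markers, Tfap2c was higher, while Plet1 (-0.58), Cldn4 (-0.58) and Tead4 (-0.28) were lower, Cldn4 in only 1 of the 6 fits with an array left out. Among 8 endoderm markers, Serpinh1 was higher by 0.28, whereas Lama1 (-0.47), Lamb1 (-0.20) and Dab2 (-0.15) were lower. Lamb1 passed in 3 and Dab2 in 2 of the 6 fits with an array left out, and Dab2 was lost after quantile normalization. Neither of the 2 mesoderm markers passed. Of 11 neural markers, Msi1 (-0.40), Stmn3 (-0.44) and Elavl3 (-0.38) were lower and Nova1 was higher by 0.41. Germ line genes went both ways, with 3 of 27 higher and 8 lower. Smc1b, a cohesin subunit of meiosis, read 8.76, 8.91 and 8.74 against 7.83, 7.93 and 8.19 (-0.82 ± 0.09), and Zcwpw1, a reader of meiotic histone marks, read 10.32, 10.36 and 10.34 against 9.70, 9.81 and 9.80 (-0.57 ± 0.04). Since the high-dose arrays of Smc1b were under the background threshold, it was at least 1.26-fold lower. Rnf17 (-0.45), Syce1 (-0.41), Rnf151 and Tfap2c were the others with the smallest p. The imprinted gene Peg3 was lower by 0.59 on the log2 scale (10.97 to 10.38), with Grb10 (-0.38) and Phlda2 (-0.37), while H13 was higher by 0.33.

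DNA replication genes were more often higher. Of 74, 27 were higher (36.5%) and 3 lower, with a median of 0.093. The differences were modest. Donson, a replication fork factor, read 8.27, 8.40 and 8.45 against 8.85, 8.89 and 9.05 (0.56 ± 0.07, limma adjusted p = 0.00167). Since its low-dose arrays were under the background threshold, it was at least 1.38-fold higher. Lig1, the ligase that joins Okazaki fragments, read 11.12, 11.13 and 11.22 against 11.47, 11.49 and 11.44 (0.31 ± 0.04), Dna2, a nuclease of the same fragments, was higher by 0.32, Slbp, which binds histone mRNA, by 0.30 and Rpa2 by 0.29. Pold4, the smallest subunit of DNA polymerase δ, went the other way (-0.58 ± 0.07). Its high-dose arrays were under the background threshold, which leaves it at least 1.22-fold lower. The count of higher members was 11, 12 and 13 without replicate 1, 2 or 3 of the low dose, and 18, 20 and 32 without those of the high dose.

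The windows of Mcm6 and Rfc3 are shown because they hold a match to the E2F site, the element of many genes of the G1/S transition. Of 64 replication genes with a RefSeq window, 11 held TTTGGCGC or TTTCGCGC on either strand, against 1.9% of the 6571 windows. Of these 11, 6 were higher, none was lower and 5 did not pass. Mcm6, a helicase subunit, was higher by 0.19 and Rfc3, a subunit of the clamp loader, by 0.25. Both genes were chosen for their windows after their values were seen. Both calls were lost when any 1 replicate of the low dose was left out, and that of Rfc3 also without replicate 2 of the high dose. The window of Mcm6 holds 3 matches, of which 2 overlap on opposite strands in the stretch below. Matches are in capitals.
Mcm6, chr1:128359762-128359861, minus strand: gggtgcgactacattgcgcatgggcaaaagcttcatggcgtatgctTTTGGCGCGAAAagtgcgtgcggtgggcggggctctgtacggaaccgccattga
Rfc3, chr5:151651165-151651264, minus strand: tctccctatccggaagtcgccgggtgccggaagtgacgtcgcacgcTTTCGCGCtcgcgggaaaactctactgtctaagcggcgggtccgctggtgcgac
Among all tested genes with a window, the E2F motif occurred in 2.75% of the higher and 1.11% of the lower ones. For the octamer these shares were 1.8% and 1.58%, and for the Dux core 0.212% and 0.158%. None of these differences was tested.

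Mitotic genes were higher in a share near the background and lower in a smaller share. Of 112, 17 were higher (15.2%) and 10 lower (8.93%). Ncapg2, a subunit of condensin II, read 9.34, 9.45 and 9.34 against 9.89, 9.99 and 9.92 (0.56 ± 0.05, limma adjusted p = 0.000464). The kinetochore genes Spc24 (-0.71 ± 0.08) and Dsn1 (-0.46 ± 0.04) were lower, as was Cenpa (-0.25), the centromeric histone. Anapc2 and Anapc10, subunits of the ubiquitin ligase that ends mitosis, were higher by 0.25 and 0.23. In the list around Haspin and the chromosomal passenger complex, 4 of 29 were higher and 2 lower, and 23 did not pass. Aurkb, its kinase, differed by 0.03 (adjusted p = 0.561) and Incenp, its scaffold, by 0.12 (adjusted p = 0.0704). Cdca8, the subunit Borealin, passed at 0.12 (adjusted p = 0.0417) but in only 1 of the 6 fits that left out an array. Pds5b (0.27) and Stag1 (0.29), which act on cohesin, were higher. Haspin itself was not among the tested single-symbol probe sets. Aurkb and Incenp, like Adk below, were looked up after the other values were seen.

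Regulators of G1 split, with 7 of 41 higher and 8 lower. Cdc25a and E2f3, activators of S phase entry, were higher by 0.23 and 0.46, and Ccnd3 (-0.38) and Cdk4 (-0.23), the G1 cyclin and its kinase, were lower. Ccnd2 read 9.04, 9.17 and 9.15 against 8.86, 8.93 and 8.75 (-0.27 ± 0.06, limma adjusted p = 0.0135), with a DMSO mean of 8.44 below both doses. Among 38 targets of p53, 8 were higher and 8 lower. Perp, a desmosome gene, read 10.84, 10.85 and 10.84 against 11.34, 11.41 and 11.24 (0.48 ± 0.05), and its DMSO mean of 10.40 was below both doses. Plk2 (0.29) and Fbxw7 (0.33) were higher too. Dcxr (-0.53), Plk3 (-0.44) and Xpc (-0.31) were lower. Of 94 DNA repair genes, 16 were higher and 18 lower, with Mgmt (-0.52), Mutyh (-0.53), Prkdc (-0.36) and Xrcc5 (-0.30) among the lower ones and Ercc2 (0.35) and Recql4 (0.32) among the higher ones. Mgmt was under the background threshold on every high-dose array, at least 1.2-fold lower.

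Kinases and metabolic enzymes related to the known targets of the drug went both ways. In the list of CLK, DYRK, HIPK, SR protein and casein kinases, 4 of 26 were higher and 2 lower. Csnk1g3, a casein kinase 1 isoform, read 10.15, 10.04 and 10.21 against 9.75, 9.55 and 9.41 (-0.56 ± 0.09, limma adjusted p = 0.00355), and its DMSO mean was 10.46. Dyrk1a and Cdk12 were higher by 0.25 and 0.24, and Srpk2 was lower (-0.25). Dyrk1a passed in only 2 and Srpk2 in 4 of the 6 fits that left out an array. Of 33 genes of adenosine and purine metabolism, 6 were higher and 7 lower. Ampd2, an AMP deaminase gene, read 10.01, 10.07 and 10.01 against 10.32, 10.29 and 10.29 (0.27 ± 0.04), and Itpa, which removes inosine triphosphate, was higher by 0.41. Slc29a3, a lysosomal nucleoside transporter gene, and Prps1, which makes PRPP, were both lower by 0.27 (9.63 to 9.37 and 10.79 to 10.52). Adk, which encodes adenosine kinase, passed at -0.18 (adjusted p = 0.0397), a call lost after quantile normalization and in 5 of the 6 fits that left out an array.

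Splicing factors were seldom lower. Of 143 splicing factors, 31 were higher (21.7%) and 4 lower (2.8%), with a median of 0.059. The higher count was 15, 18 and 18 without replicate 1, 2 or 3 of the low dose, and 36 without replicate 3 of the high dose. Cwc22, a splicing factor that loads the exon junction complex, read 9.58, 9.53 and 9.58 against 9.98, 9.99 and 9.99 (0.42 ± 0.04, limma adjusted p = 0.000464). Thoc1, which links transcription to mRNA export, was higher by 0.43, Hnrnpr by 0.40 and Crnkl1 by 0.34. Ptbp2 (-0.46) and Esrp2 (-0.40), regulators of alternative exons, were lower. Among 89 genes of RNA polymerase II and Mediator, 21 were higher (23.6%) and 11 lower. Larp7, a binder of the 7SK RNA, was higher by 0.40, Gtf2a1 by 0.42 and Taf1 by 0.37. Taf5, a further subunit of TFIID, read 9.87, 9.86 and 9.88 against 9.28, 9.19 and 9.10 (-0.68 ± 0.05), and the elongation factor Ell2 was lower by 0.50 on the log2 scale (10.95 to 10.45), while its second probe set did not pass (0.11).

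Genes of ribosome biogenesis were seldom lower, whereas no gene of a cytosolic ribosomal protein was higher in the full fit. Of 115 genes of ribosome biogenesis and RNA polymerase I, 23 were higher (20%) and 4 lower (3.48%), with a median of 0.085. The higher count fell to 9, 13 and 9 without replicate 1, 2 or 3 of the low dose, was 14 without replicate 2 of the high dose and rose to 41 without its replicate 3. The count over all 9911 probe sets moved alike, from 1456 to 744, 917 and 799 without those of the low dose. It was 1031 and 1911 without replicate 2 or 3 of the high dose. Nol8, Dcaf13, Nol11 and Nop56, which process pre-rRNA, were higher by 0.33, 0.35, 0.29 and 0.25. Imp3 was an exception (12.09, 12.19 and 12.09 against 11.56, 11.61 and 11.58, a difference of -0.54 ± 0.04). Of 50 cytosolic ribosomal protein genes, none was higher and 17 were lower (34%), with a median of -0.09. Rps12 read 12.11, 12.21 and 12.16 against 11.77, 11.80 and 11.80 (-0.37 ± 0.04, limma adjusted p = 0.00107). Rps3, Rpl22, Rpl7, Rpl28 and Rps19 were lower by between 0.20 and 0.28. After quantile normalization 2 were higher and 12 lower, and without any 1 replicate of the low dose, or without replicate 2 of the high dose, 9 to 11 were lower. Of 62 subunits of oxidative phosphorylation, 4 were higher and 15 lower, led by Sdhc of complex II (10.85, 10.83 and 10.95 against 10.34, 10.38 and 10.37, a difference of -0.52 ± 0.05), Ndufa3 (-0.38) and Ndufv3 (-0.43). Mitochondrial ribosomal proteins (3 higher and 11 lower of 62), translation factors and tRNA synthetases (8 and 9 of 71) and the proteasome (4 and 4 of 41) lay near or under the background.

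Small nucleolar RNAs, which guide the modification of ribosomal RNA, held the largest increase of a single-symbol probe set. Snord13 read 10.59, 10.73 and 10.60 at 0.1 μM and 12.19, 12.07 and 12.77 at 1.0 μM, and no arrays overlapped. The difference was 1.70 ± 0.17 (SE), or 3.26-fold (limma adjusted p = 0.000659), but the call was lost when the DMSO arrays joined the fit. These read 10.10, 13.04 and 10.63, so that 1 untreated array lay above every high-dose array. Snora78 (0.80 ± 0.10), Snora61 (0.55 ± 0.07), Snord104 (0.65 ± 0.12) and Snord110 (0.57 ± 0.11) were higher too. Snora34 went down in all arrays but with a wide spread (10.60, 10.92 and 10.51 against 8.76, 9.83 and 9.92, a difference of -1.17 ± 0.29, adjusted p = 0.0194), and was lost without replicate 1 or 2 of the low dose. Of 54 such RNAs, 10 were higher and 4 lower.

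Their host transcripts gave a similar mixture. Snhg5, a host of small nucleolar RNAs, read 10.58, 10.47 and 10.59 against 11.18, 10.93 and 11.14 (0.54 ± 0.07, limma adjusted p = 0.00211), and Zfas1 was higher by 0.27. Taf1d, a subunit of the RNA polymerase I selectivity factor, has 11 probe sets, of which 10 were higher, by 0.24 to 0.64. Its introns also encode small nucleolar RNAs, and these probe sets do not tell host from guest. Of 32 long noncoding and host RNAs, 7 were higher and 7 lower, with Tug1 first among the lower ones, followed by the ESC transcripts Platr4 (-0.38) and Platr10 (-0.22).

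MicroRNA genes are short, and the array does not separate a mature microRNA from its precursor. Of 44 microRNA genes tested, 8 were higher and 5 lower, with a median of 0.148. The mature sequences (RefSeq, GRCm38.p6) of those that led in each direction, and of the pair that shares seed letters, are given with the seed, bases 2 to 8, in capitals. Of the 13 genes that passed, 9 had a mature entry. Where RefSeq lists both arms only one is shown, and the values belong to the gene, not to an arm.
miR-5125, chr17:23823339-23823358: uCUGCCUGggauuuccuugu
miR-1199-5p, chr8:84011594-84011613: uCUGAGUCccggucgcgcgg
miR-692, chr17:6895259-6895279: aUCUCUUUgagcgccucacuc
miR-15a-5p, chr14:61632075-61632096: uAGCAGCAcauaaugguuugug
miR-107-3p, chr19:34820700-34820722: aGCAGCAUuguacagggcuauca
miR-1954, chr2:32652342-32652362: aCUGCAGAgugagacccuguu
Mir15a read 8.49, 8.57 and 8.29 at 0.1 μM and 7.93, 8.16 and 8.10 at 1.0 μM (-0.39 ± 0.09, limma adjusted p = 0.0135). Both means (8.45 and 8.06) were under the background threshold, and the call was lost with all 9 arrays, after quantile normalization and without replicate 1 of the low dose. The seed of miR-15a-5p (AGCAGCA) and that of miR-107-3p (GCAGCAU) overlap by a shift of 1 base, but Mir107 was higher, by 0.15 (adjusted p = 0.0466), a call lost in every fit that left out an array.

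Mir5125 read 11.45, 11.35 and 11.47 against 10.91, 11.10 and 11.03 (-0.41 ± 0.06, limma adjusted p = 0.00278), and Mir1199 read 9.13, 9.13 and 9.10 against 8.72, 8.84 and 8.79 (-0.34 ± 0.04). Mir692-1 was lower by 0.29 on the log2 scale (11.95 to 11.66). Mir1954 read 9.28, 9.32 and 9.26 against 9.63, 9.52 and 9.82 (0.37 ± 0.07). The Mir669 and Mir466 families, which lie in an intron of Sfmbt2, moved together. Of 16 probe sets of Mir669 genes, 14 were higher, and of 8 of Mir466 genes, 7 were higher, with none lower. Differences ran from 0.13 to 0.40 in the first family and from 0.05 to 0.33 in the second. Several of these probe sets gave nearly the same values because their targets are near-identical copies, so they are not separate measurements. Sfmbt2, the Polycomb-associated host gene, read 8.80, 8.74 and 8.93 against 9.30, 9.11 and 9.0 (0.31 ± 0.09, adjusted p = 0.0258). Dleu2, the host of Mir15a, was lower like its guest (9.04, 8.90 and 9.12 against 8.86, 8.39 and 8.64, a difference of -0.39, adjusted p = 0.0356). Both hosts and Mir107 were chosen after their values were seen, and Dleu2 passed in only 1 of the 6 fits with an array left out.

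Genes of the integrated stress response were more often lower than higher at 1.0 μM. In the integrated stress response with serine synthesis, which ATF4 controls, 16 of 45 were lower (35.6%) and 1 was higher, with a median of -0.127. Slc1a4, a neutral amino acid transporter gene, read 9.11, 9.27 and 9.11 against 8.43, 8.46 and 8.56 (-0.68 ± 0.06, limma adjusted p = 0.000464), against 9.40 in DMSO. Cth, which makes cysteine, read 10.96, 11.09 and 11.10 against 10.52, 10.40 and 10.41 (-0.61 ± 0.06), and its DMSO mean (10.41) was close to the high dose. The tRNA synthetases Lars (-0.33), Cars (-0.26) and Sars (-0.25) and the angiogenic factor Vegfa (-0.37) were lower as well. The calls of Sars and Vegfa were lost with all 9 arrays in one fit. Rars, a tRNA synthetase gene outside this list, was higher by 0.30. Only 7 members were lower when all 9 arrays were fitted together, and 9, 10 and 8 without replicate 1, 2 or 3 of the low dose.

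Genes of hypoxia and glycolysis followed a similar course, with 17 of 44 lower (38.6%) and 2 higher. The lower count was 10 without replicate 2 of the low dose, 11 without its replicate 3 and 11 with all 9 arrays. Epas1, the oxygen-regulated factor HIF-2α, read 9.20, 9.19 and 9.17 against 8.81, 8.77 and 8.83 (-0.38 ± 0.04, limma adjusted p = 0.000704). Eno3 (-0.52) and Pfkl (-0.36), glycolytic enzymes, Bnip3 (-0.49), a mitophagy receptor, and Car12 (-0.54) were lower. Car12 was under the background threshold on every high-dose array, at least 1.2-fold lower. For Epas1 and Car12 the DMSO mean (8.80 and 8.18) lay nearer to the high dose, whereas for Pfkl (11.84) it lay at the low dose. Ak4 was one of the 2 higher genes (0.39). Of 75 chaperone and heat shock genes, 9 were higher and 7 lower, with Dnajc30 (-0.91), a mitochondrial J-protein, the lowest, and Xbp1 (-0.33), a regulator of the endoplasmic reticulum, also lower. Dnajc30 was under the background threshold on every high-dose array, at least 1.48-fold lower.

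Lysosomal genes were lower in 20 of 74 cases (27.0%) and higher in 5, with 10 lower without any 1 replicate of the low dose. Scarb2, a membrane protein that carries glucocerebrosidase to lysosomes, read 9.70, 9.72 and 9.72 against 9.16, 9.24 and 9.19 (-0.51 ± 0.04, limma adjusted p = 0.00031). The hydrolases Idua (-0.59), Ctsf (-0.58) and Ctsc (-0.46) and the proton pump subunits Atp6v1a (-0.24) and Atp6v0d1 (-0.22) were lower. Idua and Ctsf were under the background threshold on every high-dose array, at least 1.19-fold and 1.1-fold lower. In sterol and fatty acid synthesis, 9 of 36 were lower and 3 higher. Nsdhl read 10.70, 10.72 and 10.69 against 10.14, 10.07 and 10.26 (-0.55 ± 0.05), and Fdft1 (-0.34) and the regulator Srebf2 (-0.30) were lower, while the epoxidase gene Sqle (0.45) and the sensor gene Scap (0.34) were higher.

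Detoxification genes included some of the largest decreases. Of 47 genes of the NRF2 type or epoxide hydrolases, 13 were lower and 7 higher. Srxn1, a sulfiredoxin that NRF2 induces, read 9.71, 9.70 and 9.81 against 9.10, 9.13 and 8.97 (-0.67 ± 0.06, limma adjusted p = 0.000425). Gstt2 (-0.58), Abcc4 (-0.49), Gstm2 (-0.46) and Blvrb (-0.44) followed. Nqo1, a classical target of the same factor, went up. In the interferon list, Sp110 was higher, whereas Ifitm3, an antiviral membrane protein gene, read 10.80, 10.83 and 10.83 against 10.16, 10.21 and 10.03 (-0.69 ± 0.05), and B2m, the light chain of class I MHC, was lower by 0.43 on the log2 scale (12.24 to 11.81).

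Matrix and adhesion genes were often lower. Of 69, 27 were lower (39.1%) and 7 higher, with a median of -0.113. Timp3, an inhibitor of metalloproteinases, read 8.90, 8.99 and 9.0 against 8.37, 8.29 and 8.46 (-0.59 ± 0.06, limma adjusted p = 0.000639). The tight junction gene Cldn9 read 9.11, 9.08 and 9.03 against 8.15, 8.39 and 8.41 (-0.75 ± 0.07). High-dose arrays of Timp3 and Cldn9 were all under the background threshold, which leaves them at least 1.41-fold and 1.52-fold lower. Cdh3, which encodes P-cadherin, was lower by 0.43 and Ahnak by 0.36 (10.74 to 10.30 and 8.77 to 8.41), while Perp was higher. Without replicate 1 of the low dose 17 were lower. Fibroblast markers moved with this class. Of 9 tested out of 26, 3 were lower and none higher, and their summed signal was 15938 to 16712 at 0.1 μM, 14458 to 14975 at 1.0 μM and 14911 to 15389 in DMSO. Tagln read 9.10, 9.37 and 9.25 against 8.57, 8.31 and 8.45 (-0.80 ± 0.09), Timp1 was lower by 0.41 and Fn1, fibronectin, by 0.26. Col1a1, Col1a2, Col3a1 and Dcn were not among the tested probe sets, and the part of other cells in this result was not tested.

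Contractile and actin genes were lower in 12 of 61 cases (19.7%), which equals the background, and higher in 3, led by Ppp1r14a, Tagln, Mymx (-0.43), a fusion peptide of myoblasts, and Myl9 (-0.37). Tubulins and their modifiers were higher in 13 of 44 (29.5%) and lower in 5, with 8 higher without replicate 1 or 3 of the low dose. Tubb6 read 10.58, 10.68 and 10.58 against 10.92, 10.99 and 11.06 (0.37 ± 0.05), and Ttll5, a polyglutamylase gene, and Tppp3, which promotes tubulin polymerization, were higher by 0.33 and 0.25. Tppp3 had means of 9.95 at 0.1 μM and 10.20 at 1.0 μM, both above a DMSO mean of 9.35. Tubb2b was lower (11.72, 11.59 and 11.53 against 11.09, 11.12 and 11.10, a difference of -0.51 ± 0.05, limma adjusted p = 0.000904).

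Zinc finger genes named Zfp were lower in 46 of 161 cases (28.6%) and higher in 14 (8.7%), with 30 lower without replicate 3 of the low dose. Zfp729a had means of 10.55 against 9.91, and no arrays overlapped (-0.64 ± 0.05, limma adjusted p = 0.00034). Zfp229 (-0.54), Zfp58 (-0.50), Zfp770 (-0.47), Zfp580 (-0.42) and Zfp992 (-0.39) were also lower. After quantile normalization 36 were lower and 19 higher. Of 140 solute carriers, 38 were lower (27.1%) and 19 higher. The lower ones included Slc1a3 (8.52, 8.70 and 8.65 against 7.78, 7.92 and 7.79, a difference of -0.80 ± 0.06), a glutamate transporter gene. Slc25a11 (-0.72), the mitochondrial oxoglutarate carrier, Slco4c1 (-0.70) and Slc47a1 (-0.64) were lower too. All high-dose arrays of Slc1a3, Slco4c1 and Slc47a1 were under the background threshold. Against it, Slc1a3 and Slc47a1 were at least 1.11-fold and 1.05-fold lower. Chromatin modifiers (20 higher and 20 lower of 144) and ubiquitin enzymes (32 and 29 of 212) stood near the background. In the first group Kdm6b (-0.46), an H3K27 demethylase, Kat2b (-0.38), an acetyltransferase, and Hdac5 (-0.42), a deacetylase, were lower and Brd7 was higher by 0.27. In the second, Ube4a was higher by 0.43 and Rnf5 was lower by 0.54 on the log2 scale (11.36 to 10.82).

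Genes that the study had taken from these arrays against DMSO were not all sensitive to the dose. Pdgfc, a growth factor gene, read 10.75, 10.60 and 10.70 against 10.12, 10.06 and 9.81 (-0.69 ± 0.09, limma adjusted p = 0.00157), with 9.86 in DMSO, so that it stood high at the low dose. Cd68 was higher by 0.19 at 1.0 μM and AU015836 lower by 0.18 on the log2 scale (9.80 to 9.62). AU015836 passed in only 1 of the 6 fits with an array left out, and Cd68 was lost with all 9 arrays and without replicate 1 or 2 of the low dose. Prss42 (0.39 ± 0.18), Ror1 (0.41 ± 0.13), Glp1r (0.11 ± 0.06), Cbr3 (-0.0015 ± 0.151), Ttll6 (-0.01 ± 0.11) and AF357355 (-0.11 ± 0.09) did not pass, with adjusted p values from 0.0506 to 0.995. For Cbr3, Ttll6 and Glp1r both doses lay above the DMSO means (7.81, 8.73 and 8.96) while the doses overlapped with each other. H4f16, the study's Hist4h4, had means of 9.81 at 1.0 μM, 10.32 at 0.1 μM and 10.35 in DMSO, whereas the study lists it as raised.

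Set against DMSO, the genes that differed between the doses did not all lie on one slope. For 747 of the 1233 higher and 1036 of the 1674 lower single-symbol probe sets, the DMSO mean lay between the doses. For 432 and 460 it lay beyond the low dose, as for Klf4 and Tppp3, whose levels were lowest in DMSO. For 54 and 178 it lay beyond the high dose, as for Ccnd2, Mir1199 and Vegfa, which stood higher at both doses than in DMSO and highest at 0.1 μM. These counts describe positions of means and were not tested.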

How the data were processed

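The authors hybridised RNA of E14 ESCs, 3 arrays per condition, and processed the arrays with Affymetrix Expression Console by RMA (background correction, quantile normalization and probe set summary). They deposited 1 log2 signal per probe set and array. Versions of these tools are not given in the sources used here. RMA draws all arrays to a common distribution, so that a change shared by most transcripts would not be seen. The number of arrays limits the precision. Probe sets were named from the platform annotation, and those with 1 symbol (8854 of 10476 deposited) were used by name. No deposited column of sample values was left out, and the table holds no comparisons of the authors.

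Groups were taken from the sample titles. Probe sets over the authors' background threshold (8.46 on the log2 scale) on at least 3 of 9 arrays were fitted with limma 3.58.1 in R 4.3.3, on the 6 arrays of 5-ITu alone, with Benjamini-Hochberg adjustment over 9911 probe sets and an adjusted p threshold of 0.05. The exact permutation test on 3 against 3 arrays cannot go below 0.1 and was not used. In simulated data of the same 9911 probe sets, the fit recovered 64.2% of 67 changes of 1.25-fold, 83.6% of 67 of 1.5-fold and 98.5% of 66 of 2-fold, with 13 false calls. Only those probe sets were changed in the simulation, with independent noise, whereas 34.8% passed in the data. Its rates therefore need not hold for the data.

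The members and gene lists were chosen with earlier results of these data known. Genes were named by a rule. Among single-symbol probe sets other than numbered loci and small RNAs that passed in the full fit and with each array left out, without overlap of the arrays, these were the 15 largest differences in each direction over background in both groups, the 6 largest with one group under it and the 6 brightest. Added to them were the 6 small RNAs of smallest p in each direction, the genes that the study names from the arrays and up to 6 members of each list by p. Members of the 2-cell-like and histone lists were described beyond that rule. Start regions and mature microRNAs are from RefSeq (GRCm38.p6), with windows for 6571 of 8198 tested genes. The plots were drawn with matplotlib 3.10.9.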

Additional observations from a re-analysis of the deposited data

How the results depend on the processing

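No named probe set that passed changed direction under any alternative, but the balance of calls did. The 1456 higher and 1990 lower probe sets became 1223 and 1724 with all 9 arrays in one fit, 1824 and 1766 after quantile normalization, and 1302 and 1867 with a replicate block. Deviations of arrays with the same number correlated at -0.02, 0.16 and -0.01, so that no strong shared deviation was seen. The labels do not say whether arrays with the same number were handled together. With array weights, 2406 probe sets were higher, 2076 of them with a single symbol. The methods' one-way test after Benjamini-Hochberg adjustment gave 792 higher and 1250 lower (666 and 1065 with a single symbol). At an adjusted p under 0.01, 599 were higher and 1098 lower (474 and 920 with a single symbol). Past 1.5-fold, where 60 were higher and 228 lower, a filter on all 9 arrays left 36 and 128, 1 probe set per gene left 23 higher, and single-symbol probe sets alone left 26 higher. The causes were not tested, apart from fewer probe sets under the narrower filters.

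With 1 array left out, the higher probe sets ranged from 744 to 1911 and the lower ones from 1347 to 2270. Single-symbol probe sets ranged from 593 to 1650 higher and from 1131 to 1875 lower, and those past 1.5-fold from 59 to 68 higher and from 197 to 294 lower. The low-dose arrays moved the higher count most, to 744 without replicate 1, 917 without replicate 2 and 799 without replicate 3. Of 298 named probe sets that passed, 275 to 298 passed with an array left out, 283 with all 9 arrays and 267 by the one-way test. Part of them was chosen for passing with each array left out, so these figures do not describe all calls. Of all 3446 calls, 2092 to 3248 were kept with an array left out, 2876 with all 9 arrays and 1937 by the one-way test. Of 2907 single-symbol calls, 1521 passed in each of the 6 fits that left out an array. The sign of the list median was kept in 40 of 49 lists under all settings and changed in 9. Probe sets near the background threshold limit the smallest differences that could be seen.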
